A study of Mus musculus with 12 samples.

Results

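The cytosolic ribosomal protein genes encode the proteins of the large and small ribosomal subunits. They were taken as every row of the deposited gene table whose symbol begins with Rpl or Rps and carries only a number and a short suffix, plus Rplp0, Rplp1, Rplp2 and Rpsa. This gave 84 of 23253 genes, 51 of the large subunit and 33 of the small subunit. Of these, 81 passed the filter on low counts and were tested among 17909 genes, 48 of the large and 33 of the small subunit. Rpl3l, Rpl10l and Rpl39l did not pass it.

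The libraries were labelled as cortical neurons sorted by flow cytometry from C57BL/6 mice, with 3 libraries in each of 4 groups. Adult control was numbered 1 to 3, stroke 4 to 6, stroke with GDF10 siRNA 1 to 3, and P4, a second control group, 4 to 6. Stroke was a focal cortical lesion 2 mm wide, for which rose bengal, a dye that reacts to light, was given and the brain was lit with a cold source for 15 min. GDF10 is a secreted factor related to TGF-beta, and the series concerns its role in axonal sprouting after stroke. The source labels call the animals of the 3 other groups adult and give only P4 for this one, while a growth note shared by all 12 libraries calls the mice adult. The meaning of P4, the time from stroke to sampling, and whether the libraries of a group came from separate animals are not stated in the labels. P-values therefore measure only the spread between these libraries, which may be technical. The group labelled with the siRNA is called siRNA-labelled stroke, since the deposited comparison columns name it only by GDF10.

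A ribosome is built from ribosomal RNA, cut from a long 45S precursor in the nucleolus, and from about equal numbers of each ribosomal protein. The mRNAs of these proteins are known for a run of pyrimidines at their first bases, the terminal oligopyrimidine or TOP motif, through which the growth signal of mTORC1 controls their translation. Neurons carry ribosomes in cell bodies, dendrites and growing axons. Ribosomal protein genes have left many processed pseudogenes in mammalian genomes, so short reads from them can be hard to place.

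The sequences around the start of the 8 members called higher in P4 than in adult control (below) are given next. They are printed because the TOP run is the feature the family is best known for. Each runs from 35 bases before to 25 bases after the annotated start, in RefSeq's GRCm38.p6, with the longest unbroken pyrimidine run in capitals.
Rps15a (chr7:118116123-118116182, minus strand): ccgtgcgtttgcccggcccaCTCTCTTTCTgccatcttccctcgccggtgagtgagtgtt
Rpl15 (chr14:18270962-18271021, minus strand): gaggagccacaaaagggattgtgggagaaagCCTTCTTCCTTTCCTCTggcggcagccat
Rpl4 (chr9:64173352-64173411, plus strand): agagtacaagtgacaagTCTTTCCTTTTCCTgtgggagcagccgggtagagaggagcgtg
Rpl22 (chr4:152325691-152325750, plus strand): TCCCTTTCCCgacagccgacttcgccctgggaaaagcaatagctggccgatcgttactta
Rpl5 (chr5:107900493-107900552, plus strand): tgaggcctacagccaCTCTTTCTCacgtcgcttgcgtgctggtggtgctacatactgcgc
Rpl36a (chrX:134585619-134585678, plus strand): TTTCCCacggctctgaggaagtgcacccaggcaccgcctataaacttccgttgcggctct
Rpl23 (chr11:97782415-97782474, minus strand): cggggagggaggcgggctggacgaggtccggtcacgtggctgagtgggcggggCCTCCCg
Rps25 (chr9:44407679-44407738, plus strand): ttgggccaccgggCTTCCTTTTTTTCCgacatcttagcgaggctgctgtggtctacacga

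The run was 17 bases in Rpl15, 14 in Rpl4 and Rps25, 10 in Rps15a and Rpl22, 9 in Rpl5, and 6 in Rpl36a and Rpl23. It spanned the annotated start in Rpl15 and lay before or after it in the other 7, and annotated starts can be off by some bases. Over the 75 promoter entries that matched 63 members, the longest run had a median of 8 bases, against 6 bases over all 32851 entries. A run of at least 8 bases was present in 52% of the member entries and in 23.8% of all entries. Letter searches over the 300 bases of each entry gave CGGAAG, on either strand, in 60% of member entries and 16.9% of all entries. CTTTCC, on the coding strand only, was in 37.3% and 14.1%, and TATAAA, on either strand, in 9.33% and 13.6%. Among the entries of tested genes these shares were 24.8, 14.3 and 8.9%. The searches were chosen after the data were seen and describe letters, not sites.

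The members lie on 19 chromosomes, with 4 on X (Rps4x, Rpl10, Rpl39 and Rpl36a). Their transcripts were short, with a median of 799 bases over the tested members (371 to 5179) against 2787 bases over 17029 tested genes with a transcript. Of the 84 members, 81 shared at least 1 stretch of 69 bases, the read length, with a transcript of another gene. In 39 members less than 50% of such stretches were found in no other gene. With the aligner and strand setting not given in the sources used here, counts of such members are uncertain. The lowest shares were in Rpl5, with 7.18% of its stretches found nowhere else, Rpl9 (7.76%), Rpl10 (8.07%), Rpl35 (9.34%) and Rpl36a (15.2%). Rps6 had 15.8% and Rps2 27.4%, against 95.6% in Rps15a, 97.7% in Rpl22 and 90.1% in Rpl4. These shares hold for the annotated transcript taken for each gene, which in Rps15a was the longest of the tested members, at 5179 bases.

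The members took under 1% of the counts of every library. Their share in adult control 1, 2 and 3 was 0.237, 0.301 and 0.140%. In stroke 4, 5 and 6 it was 0.296, 0.390 and 0.459%, and in siRNA-labelled stroke 1, 2 and 3 it was 0.219, 0.290 and 0.484%. In P4 4, 5 and 6 it was 0.432, 0.374 and 0.419%. All P4 libraries thus lay above all adult control libraries, stroke 4 lay under adult control 2, and the siRNA-labelled libraries spread over the range of both other adult groups. The means were 0.226 ± 0.081% in adult control, 0.382 ± 0.0816% in stroke, 0.331 ± 0.137% in siRNA-labelled stroke and 0.408 ± 0.0303% in P4 (SD, n = 3 each). Totals ranged from 10517638 counts in adult control 3 to 48633350 in P4 4, so counting error was small. The 95% Wilson interval of the share was 0.138 to 0.143% in adult control 3 and 0.430 to 0.434% in P4 4, and it covers counting error only.

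Both subunits had their lowest mean share in adult control. The large subunit share was 0.141 ± 0.0526% in adult control, 0.233 ± 0.0431% in stroke, 0.204 ± 0.0817% in siRNA-labelled stroke and 0.261 ± 0.0221% in P4. The small subunit share was 0.0849 ± 0.0284%, 0.148 ± 0.0387%, 0.127 ± 0.0555% and 0.147 ± 0.0131% in the same order. The ratio of the large to the small subunit share was 1.51 to 1.79 in every library but P4 6, where it was 1.97.

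The gene entry Rn45s, named for the 45S precursor of ribosomal RNA, divided the libraries into 2 separate sets. Ribosomal RNA is cut from that precursor, so counts on this entry cannot tell the precursor from mature ribosomal RNA. Rn45s took 2.08 to 2.72% of counts in 5 libraries (adult control 2, the 3 stroke libraries and siRNA-labelled stroke 3). In the other 7 it took at most 0.427%. Among the 9 libraries of the other groups, whose source labels say adult, the 5 over 1% Rn45s had member shares of 0.296 to 0.484%, and the 4 under 1% had 0.140 to 0.290%, so that these ranges did not overlap. With P4 included, the 7 libraries under 1% spanned 0.140 to 0.432% and overlapped the 5 over it. The P4 libraries had Rn45s shares of only 0.00984 to 0.349% and member shares of 0.374 to 0.432%. No correlation is given over all libraries because of this split. Within the 7 libraries under 1%, Pearson's r of the 2 shares was -0.28 and Spearman's rho -0.21, a description in which both shares have the same denominator. Without adult control 3 and P4 6, the farthest from the median Rn45s share, r was -0.74 over 5 libraries.

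The Rn45s split runs through the groups, and all stroke libraries lie on its high side. On that side adult control 2 had a member share of 0.301%, inside the stroke range of 0.296 to 0.459%, and siRNA-labelled stroke 3 had 0.484%. On the low side adult control 1 and 3 had 0.237 and 0.140%, and siRNA-labelled stroke 1 and 2 had 0.219 and 0.290%. Rn45s itself differed between stroke (22733 ± 3350 CPM) and P4 (1530 ± 1552 CPM; SD, n = 3 each), with a log2 fold change of stroke over P4 of 3.89 and an SE of 1.15 (adjusted p = 0.0274 by edgeR's quasi-likelihood test). It passed in none of the other 4 comparisons, where adult control was at 7827 ± 9442 CPM and siRNA-labelled stroke at 10925 ± 13011 CPM. CPM are counts divided by the effective library size, that is the total times its TMM factor, and put on one scale.

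**Figure D1:**
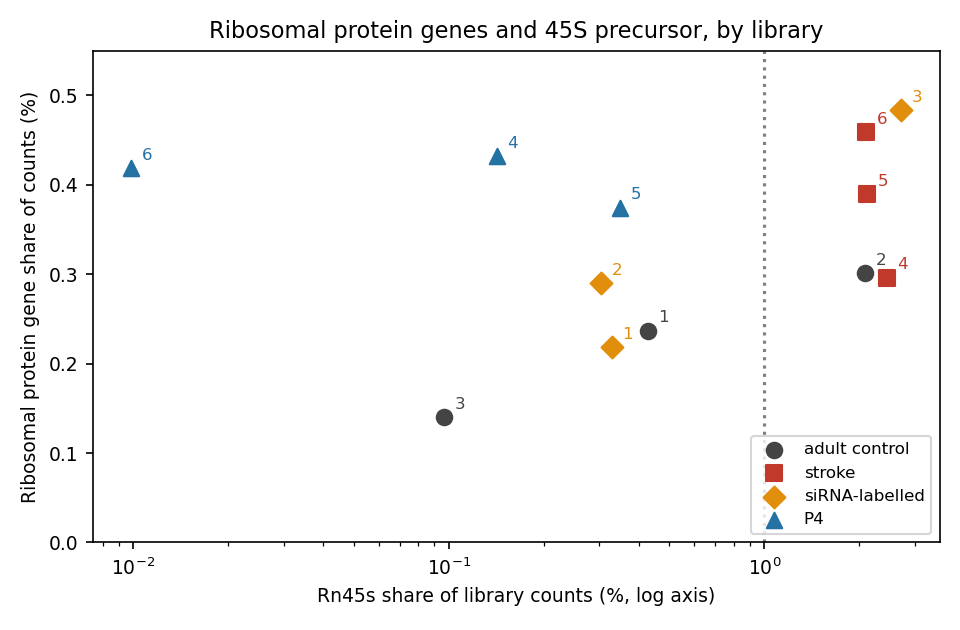
Share of counts on the ribosomal protein genes (vertical axis, percent) against the share on Rn45s (horizontal log axis, percent) in the 12 libraries, numbered by replicate, with a dotted line at 1%. The 5 libraries to the right of the line have member shares of 0.296 to 0.484%, the 4 libraries labelled adult to its left 0.140 to 0.290%, and the 3 P4 libraries to its left 0.374 to 0.432%.

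Single members differed widely in level. CPM per kb of transcript ranged from 1.63 to 281 over the tested members, with a median of 34.9. Rpl4, a large subunit protein, had the highest level per length (281), followed by Rps24 (140) and Rps4x (123), both of the small subunit. Rpl26 (1.63), Rps4l (1.84), annotated as a transcribed processed pseudogene, and Rpl34 (2.64) had the lowest. Rpl4 alone took 12.8% of all member counts as a mean over libraries (9.05 to 20.6%).

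The spread over the 12 libraries, as the SD of log2(CPM + 0.5), had a median of 0.701 over the tested members, against 0.926 over all tested genes. It was largest in Rpl18 (1.43), Rps3 (1.40), Rps19 (1.18) and Rpsa (1.12). In each of the first 3, adult control 3 was the lowest library. Rps3, a small subunit protein with a known role in DNA repair, was at 46.2, 67.7 and 2.85 CPM in adult control and at 83.6, 107 and 122 CPM in stroke. It was at 42.1, 55.9 and 119 CPM in siRNA-labelled stroke and at 93.7, 84.7 and 45.3 CPM in P4. Rpsa, also known as the laminin receptor precursor, was at 19.2, 62.6 and 18.6 CPM in adult control and 90.7, 105 and 108 CPM in stroke. It was at 17.9, 22.8 and 113 CPM in siRNA-labelled stroke and 102, 85.2 and 33.0 CPM in P4. In Rpsa the siRNA-labelled libraries thus fell on both sides, with libraries 1 and 2 beside adult control 1 and 3, and library 3 beside stroke. The smallest spread was in Rpl26 (0.194), whose low level of about 1 CPM limits it, and in Rps6 (0.334), Rpl27a (0.368) and Rpl9 (0.393).

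Adult control 3 and P4 6 stood apart from the other libraries in the profile of the members. The highest correlation of their log2 CPM over the 81 tested members with any other library was 0.790 and 0.880, whereas it was at least 0.943 in each other library. The SD of their deviations from the member means was 1.05 and 0.786, against 0.296 to 0.546 elsewhere. Adult control 3 also had the fewest counts. In part of the libraries the deviations went with the GC content of the transcripts. Spearman's rho across the 81 members was 0.27 to 0.48 in the 5 libraries over 1% Rn45s and -0.58 to 0.10 in the 7 under it. Across all tested genes with a transcript it was 0.16 to 0.38 and -0.34 to 0.23, so the trend was not particular to the members. P4 6 had the -0.58, with -0.34 across all genes. In P4 4 and P4 5 the members were at -0.18 and -0.03 and all genes at 0.17 and 0.23. These are descriptions across genes, which are not independent replicates. A fit with a GC offset for each library was tried as an alternative, and its counts are given in the comparisons with P4.

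**Figure D2:**
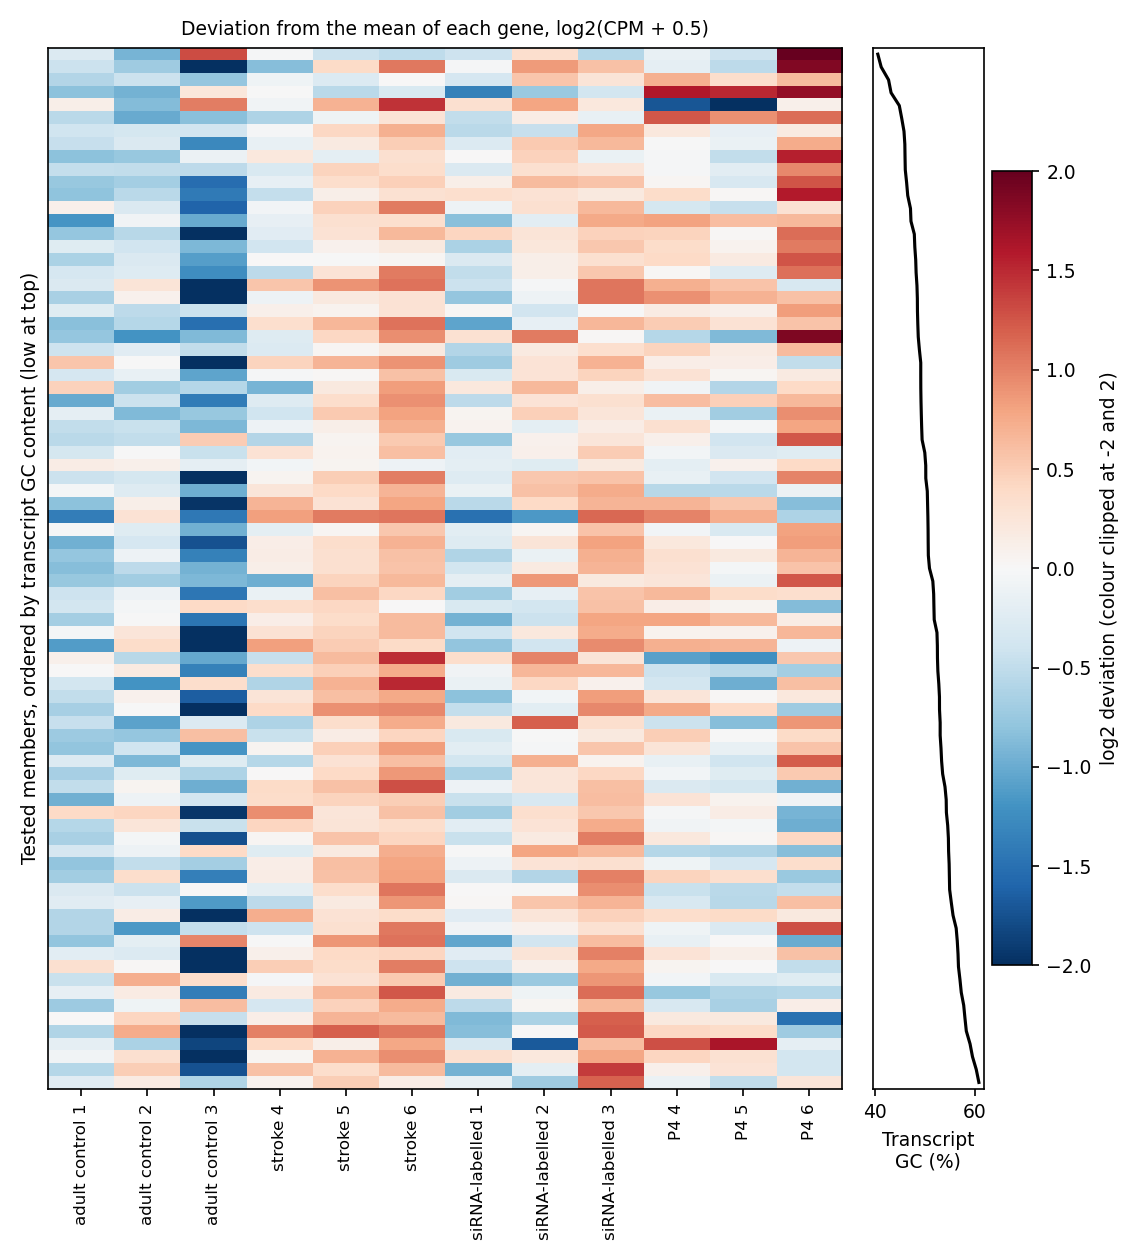
Deviation of log2(CPM + 0.5) from the mean of each gene over 12 libraries (colour), for the 81 tested members in rows ordered by transcript GC content (line at right, percent) and libraries in columns. Adult control 3 is low in most rows and has an SD of 1.05, and P4 6 is high toward the low GC rows at the top, with a rho of -0.58.

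Stroke was first set against adult control. The ribosomal protein genes lay higher in stroke on balance, but no member passed the test. Of 81 tested members, 0 were called at an adjusted p under 0.05, where 0.704% of all genes were, and the smallest adjusted p was 0.143. At an unadjusted p under 0.05, 18 members were higher and 0 lower, where 5.46% of all genes were higher and 10.5% lower. DESeq2 called 7 members, all higher, where it called 2.44% of all genes higher and 5.43% lower. The authors' deposited table, by its own false discovery rate, listed 0 of the 84 members and 3.02% of all genes. The log2 fold change was above 0 in 78 of 81 members, against 47.1% of all genes, with a median of 0.90 against -0.08. In 43 members all 3 stroke libraries lay above all 3 adult control libraries and in 0 below, where 11 and 9% of all genes did. The median of the large subunit was 0.93 and that of the small subunit 0.89.

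The smallest p values were in small subunit genes, Rps26 first and Rps25 next. Rps26, at the mRNA exit of the ribosome, was at 11.5, 13.9 and 7.07 CPM in adult control and at 26.6, 33.6 and 45.01 CPM in stroke. The groups did not overlap, and the log2 fold change was 1.69 (SE 0.50, adjusted p = 0.143 by edgeR). Rps25, known for its role at viral internal ribosome entry sites, was at 44.5, 55.8 and 41.7 CPM in adult control and at 88.0, 101 and 120 CPM in stroke. These groups did not overlap either (log2 fold change 1.12, SE 0.34, adjusted p = 0.154 by edgeR). DESeq2 called both, at adjusted p of 0.0114 and 0.0402. Over all alternatives the adjusted p ran up to 0.747 and 0.746.

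The Rn45s split moved with this comparison. With a term for the libraries over 1% Rn45s, the median log2 fold change of the members was 0.52 in place of 0.90, and that of all genes 0.04. Markers of other cells moved too. Of 8 astrocyte markers 5 were called lower in stroke, and 1 of 9 oligodendrocyte and 1 of 7 oligodendrocyte precursor markers higher. Oligodendrocyte markers took 3.38 to 9.004% of counts in adult control and 4.81 to 5.85% in stroke, and astrocyte markers 0.405 to 0.621% and 0.0606 to 0.0862%. Neuron markers took only 0.215 to 0.615% and 0.177 to 0.231%, although the label names sorted neurons. None of the markers of these 4 lists was at 0 in either group. Their part in the member values was not tested, and in bulk libraries fewer cells of a type and less RNA per cell cannot be told apart. The library numbers 1 to 3 and 4 to 6 follow the groups here, in P4 against adult control and in siRNA-labelled stroke against stroke, so any batch that follows them cannot be told apart from the group.

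The siRNA-labelled stroke libraries were next set against stroke. All stroke libraries but only siRNA-labelled stroke 3 were over 1% Rn45s, and the library numbers follow the groups. A difference between these groups could thus not be assigned to the siRNA. No difference of the ribosomal protein genes was detectable. Of 81 members 0 were called, where 0.00558% of all genes were, and DESeq2 called 0, where it called 1.08% of all genes. The authors' deposited table listed 0 of the 84 members and 0.159% of all genes. At an unadjusted p under 0.05, 0 members were higher or lower, where 4.71% of all genes were higher and 2.66% lower. The median log2 fold change was -0.18, against 0.04 for all genes, and 23 of 81 were above 0, where 51.7% of all genes were. It was 0.17 with the Rn45s term, 0.03 without stroke 6 and -0.45 without siRNA-labelled stroke 3, the only library of its group over 1% Rn45s. Microglia markers took 0.127 to 0.223% of counts in siRNA-labelled stroke and 0.0285 to 0.0986% in stroke. Oligodendrocyte precursor markers took 0.196 to 0.337% and 0.433 to 0.613%. The ranges of the oligodendrocyte, astrocyte and neuron markers overlapped. Of these 5 lists edgeR called 0 markers, and their part in the member values was not tested.

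Small subunit genes again had the smallest p values. Rps26 was at 26.6, 33.6 and 45.01 CPM in stroke and at 9.84, 18.8 and 33.7 CPM in siRNA-labelled stroke (log2 fold change -0.75, SE 0.49, adjusted p = 0.761 by edgeR). Rps2 was at 34.0, 63.7 and 73.1 CPM in stroke and at 16.4, 26.1 and 52.6 CPM in siRNA-labelled stroke (-0.84, SE 0.55, adjusted p = 0.761 by edgeR). The groups overlapped in both, and siRNA-labelled stroke 3 was the highest library of its group. In Rpsa, given above, the log2 fold change was -0.98 (SE 0.67, adjusted p = 0.773 by edgeR), and -2.33 without siRNA-labelled stroke 3. The 1 member whose groups did not overlap, lower in siRNA-labelled stroke, was Rpl27a, with 28.03, 27.2 and 31.98 CPM in stroke against 26.4, 19.9 and 26.0 CPM. It was named after its values were seen, and 8.11% of all genes were apart in that direction and 7.77% in the other, where 0 members were.

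P4 was set against adult control, the 2 groups without stroke. Of 81 tested members, 8 rose in P4 and 0 fell, where 6.32% of all genes were called higher and 10.4% lower. Of the 8, 6 were of the large and 2 of the small subunit. The median log2 fold change of the members was 0.78, against -0.16 for all genes, and 67 of 81 were above 0, against 45.7% of all genes. In 35 members all P4 libraries lay above all adult control libraries, where 16.1% of all genes did, and in 2, Rplp2 and Rps14, they lay below, where 16% did. The authors' deposited table, by its own false discovery rate, listed 10 of the 84 members as higher and 0 as lower, and 5.75% of all genes as higher and 9.7% as lower.

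Rps15a and Rpl15 differed most clearly. Rps15a, a small subunit protein, was at 47.8, 34.2 and 38.6 CPM in adult control and at 165, 131 and 152 CPM in P4. It was at 45.3, 65.6 and 83.9 CPM in stroke and at 49.4, 76.9 and 62.8 CPM in siRNA-labelled stroke. Every P4 library was above every library of the 3 other groups. The log2 fold change against adult control was 1.89 (SE 0.34, adjusted p = 0.00125 by edgeR). Rpl15, a large subunit protein, was at 25.2, 23.0 and 52.7 CPM in adult control and at 137, 128 and 154 CPM in P4. It was at 44.7, 30.9 and 36.3 CPM in stroke and at 17.3, 26.5 and 34.5 CPM in siRNA-labelled stroke. P4 again stood above all other libraries, and the adult groups overlapped (2.06, SE 0.41, adjusted p = 0.00263 by edgeR). These 2 members passed under every alternative tried, with adjusted p of at most 0.0124 and 0.0236. The annotated transcripts taken for both were long for this family, 5179 and 1922 bases. On these lengths their levels were 15.3 and 30.8 CPM per kb as means over all libraries. Whether the reads came from transcripts of that length was not tested.

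Rpl4 and Rpl22 followed. Rpl4 was at 258, 329 and 185 CPM in adult control and at 527, 454 and 959 CPM in P4, with no overlap (log2 fold change 1.33, SE 0.34, adjusted p = 0.0129 by edgeR). P4 6 held the highest value, and without it the log2 fold change was 0.95 and the adjusted p 0.0507. Rpl22, a large subunit protein that is also known to bind viral and cellular RNAs, was at 22.8, 34.5 and 17.2 CPM in adult control and at 71.7, 64.8 and 73.4 CPM in P4. The groups were apart (1.49, SE 0.41, adjusted p = 0.0216 by edgeR). It no longer passed without adult control 1 (adjusted p = 0.0729), adult control 3 (0.0511), P4 4 (0.0669) or P4 5 (0.0508), with log2 fold changes of 1.29 to 1.55.

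Rpl5 binds the 5S ribosomal RNA and, when free of ribosomes, the p53 regulator Mdm2. It was at 33.5, 37.2 and 29.2 CPM in adult control and at 83.1, 64.6 and 78.3 CPM in P4, with no overlap (log2 fold change 1.18, SE 0.34, adjusted p = 0.0271 by edgeR). The call was lost without each of 5 libraries, and held only without adult control 2, with adjusted p up to 0.111. Rps25 was at 99.1, 78.3 and 120 CPM in P4, above the adult control values given above (1.06, SE 0.34, adjusted p = 0.045 by edgeR). It was lost without any 1 of the 6 libraries, with adjusted p of 0.0518 to 0.122, and with a GC offset for each library (0.0663). Of the 8 alternatives other than leaving out 1 library, that offset among them, 4 kept the call.

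Rpl23, a large subunit protein that also binds Mdm2, was at 17.96, 19.2 and 10.4 CPM in adult control and at 31.7, 24.7 and 74.6 CPM in P4. Rpl36a was at 6.03, 7.30 and 3.76 CPM in adult control and at 14.1, 11.06 and 33.6 CPM in P4. In both, P4 6 was far above P4 4 and P4 5. The log2 fold changes were 1.46 (SE 0.47, adjusted p = 0.0446 by edgeR) and 1.77 (SE 0.57, adjusted p = 0.0439 by edgeR), and without P4 6 they were 0.84 (adjusted p = 0.217) and 1.15 (adjusted p = 0.206). Rpl36a was lost without any 1 of the 6 libraries, and Rpl23 without any but P4 5. Each kept its call under 5 of the 8 other alternatives. Rpl36a lies on the X chromosome, and Xist, the RNA of the inactive X chromosome, was at 2045 to 3649 CPM in P4. It was at 3.23 to 193 CPM in adult control, 2.5 to 3.97 CPM in stroke and 2.03 to 15.2 CPM in siRNA-labelled stroke. What Xist reflects thus cannot be told apart from the group in either comparison with P4. In P4 against adult control the other members on X, Rps4x, Rpl10 and Rpl39, had log2 fold changes of 1.40, 0.93 and 1.70. Of these edgeR called none, and DESeq2 called Rps4x and Rpl39. The part of Xist in the values of any member was not tested.

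The count of 8 moved with the libraries and settings. It was 3 to 11 with 1 library left out: 3 without adult control 1, adult control 3, P4 4 or P4 6, 4 without P4 5, and 11 without adult control 2. It was 5 without adult control 3 and P4 6 together, with a median of 0.54, 22 with the Rn45s term, with a median of 1.06, and 23 by DESeq2, all higher in both. The share of all genes called moved as well: 8.07% were higher and 12.1% lower with the Rn45s term, and 11% and 16.2% by DESeq2. Across the 81 members the log2 fold change ran against transcript GC content (Spearman's rho -0.46, and 0.06 across all genes). With a GC offset for each library 10 members were called, where 21.2% of all genes were, and the median was 0.71. The groups also differed in cell markers. All 9 oligodendrocyte and all 9 microglia markers were called lower in P4, 5 of 8 astrocyte and 6 of 7 oligodendrocyte precursor markers lower, and 5 of 10 neuron markers higher. Oligodendrocyte markers took 0.0103 to 0.0271% of counts in P4, microglia markers 0.00204 to 0.00355% (0.0601 to 0.0876% in adult control), astrocyte markers 0.0361 to 0.0612% and neuron markers 0.593 to 0.742%. None of these markers was at 0 in P4. Their part in the member values was not tested.

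**Figure D3:**
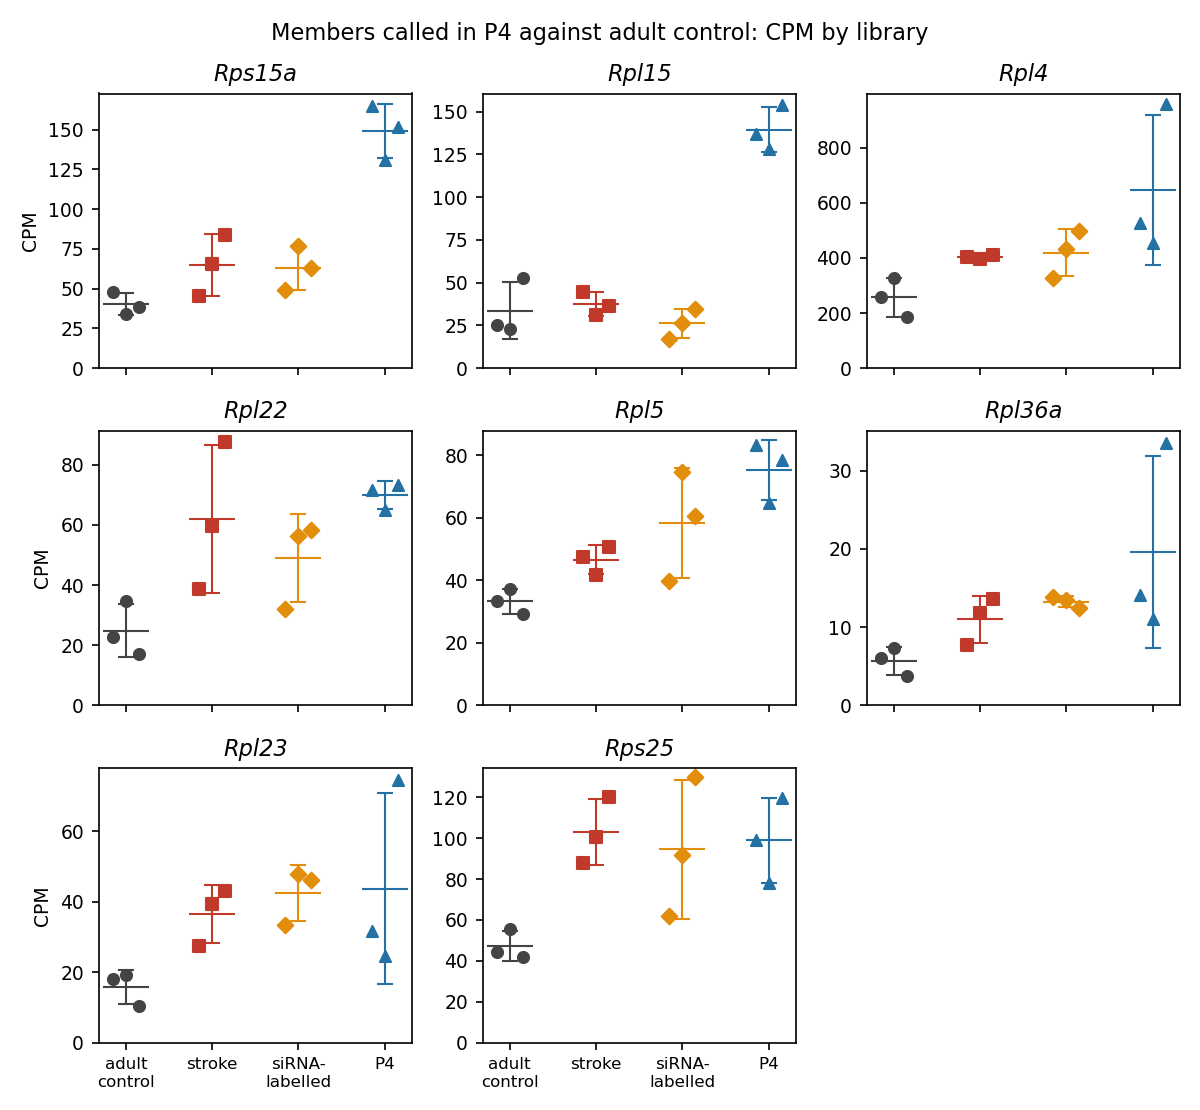
CPM in each of the 12 libraries (points, in order of replicate number) for the 8 members called in P4 against adult control, with the mean (dash) and SD (bars) of 3 libraries per group and a vertical axis from 0 in each panel. In Rps15a and Rpl15 the P4 libraries, at 131 to 165 and 128 to 154 CPM, lie above all others, and in Rpl36a and Rpl23 P4 6 lies far above the other P4 libraries.

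The siRNA-labelled stroke libraries were then set against adult control, which also served the stroke and P4 comparisons above, so these share 3 libraries. Of 81 members 0 were called, where 0.117% of all genes were, and DESeq2 called 0, where it called 2.22% of all genes. The authors' deposited table listed 0 of the 84 members and 0.839% of all genes. At an unadjusted p under 0.05, 12 members were higher and 0 lower, where 3.48% of all genes were higher and 4.88% lower. The log2 fold change was above 0 in 76 of 81 members, against 49% of all genes. Its median was 0.69, against -0.02 for all genes, and it was 0.38 without siRNA-labelled stroke 3 and 0.50 without adult control 3. In 22 members the siRNA-labelled libraries all lay above adult control and in 0 below, where 6.35 and 4.47% of all genes did.

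Rpl23 had the smallest p, with 33.4, 47.9 and 46.2 CPM in siRNA-labelled stroke against 17.96, 19.2 and 10.4 CPM in adult control (log2 fold change 1.42, SE 0.47, adjusted p = 0.399 by edgeR). Rps25 was at 62.2, 91.8 and 130 CPM in siRNA-labelled stroke (1.00, SE 0.34, adjusted p = 0.435 by edgeR against adult control). Rpl32, a large subunit protein often used as a reference gene, was at 37.0, 53.5 and 77.8 CPM against 22.6, 34.95 and 13 CPM in adult control (1.25, SE 0.44, adjusted p = 0.447 by edgeR). In all 3 the groups did not overlap. Of 8 astrocyte markers 2 were called lower in this comparison, and 0 of the 9 oligodendrocyte, 9 microglia and 10 neuron markers were called. Microglia markers still took 0.127 to 0.223% of counts in siRNA-labelled stroke and 0.0601 to 0.0876% in adult control. Their median log2 fold change was 1.42. Astrocyte markers took 0.0800 to 0.145% and 0.405 to 0.621%. The ranges of the oligodendrocyte and neuron markers overlapped. The part of any of these markers in the member values was not tested.

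The last comparison set stroke against P4. Of 81 members 1 was higher and 2 lower in stroke, where 10.8% of all genes were called higher and 7.94% lower. The median log2 fold change was 0.21, against -0.04 for all genes, with 48 of 81 above 0, where 48.9% of all genes were. It became -0.48 with the Rn45s term and -0.02 without stroke 6. In 16 members stroke lay above P4 in all libraries and in 6 below, where 22.6 and 21.7% of all genes did. The authors' deposited table also listed 1 member as higher and 2 as lower, and 9.32% of all genes as higher and 7.27% as lower. DESeq2 called 2 members higher and 3 lower, where 13.4% and 13.1% of all genes were. Markers of other cells differed too. In stroke all 9 oligodendrocyte, all 9 microglia, 6 of 7 oligodendrocyte precursor and 1 of 8 astrocyte markers were called higher, and 6 of 10 neuron markers lower. Microglia markers took 0.0285 to 0.0986% of counts in stroke, and oligodendrocyte precursor markers 0.433 to 0.613% in stroke and 0.0828 to 0.138% in P4, and the shares of the others are given above. None of these markers was at 0 in either group. Their part in the member values was not tested.

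Rpl15 and Rps15a, whose values are given above, fell in stroke relative to P4, by -1.91 (SE 0.41, adjusted p = 0.00349 by edgeR) and -1.20 (SE 0.33, adjusted p = 0.0193 by edgeR) on the log2 scale. Rpl15 passed under every alternative tried, with adjusted p of at most 0.0427. Rps15a was lost without P4 4 (adjusted p = 0.0839), stroke 4 (0.0556) or stroke 5 (0.0712) and with the Rn45s term (0.178). Across the members the log2 fold change ran with transcript GC content (Spearman's rho 0.55, and 0.13 across all genes). With a GC offset 4 members were called, where 21.8% of all genes were, and the median was 0.08.

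**Figure D4:**
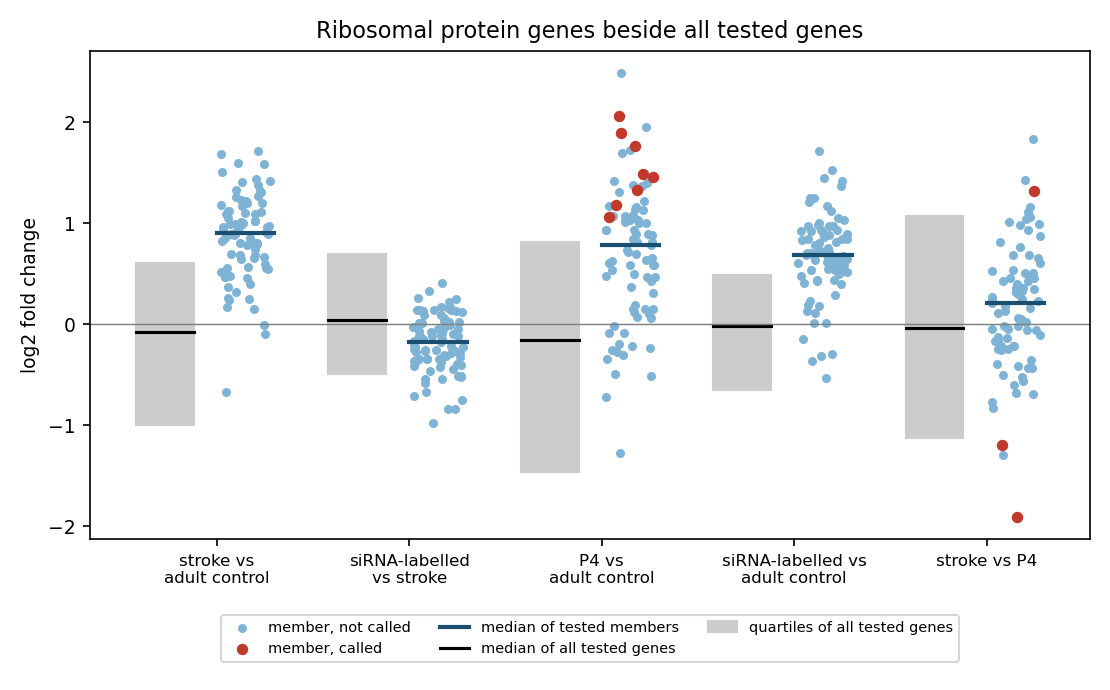
Log2 fold change (vertical axis) of the 81 tested members in 5 comparisons (points; called members larger and in red) with their median (thick line), beside the range from the lower to the upper quartile (grey box) and the median (thin line) of all 17909 tested genes. The member medians are 0.90, -0.18, 0.78, 0.69 and 0.21 from left to right, and calls appear only in the 2 comparisons with P4.

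The proteins of the ribosomal stalk, Rplp0, Rplp1 and Rplp2, recruit the elongation factors to the large subunit. Rplp0 was at 32.0, 50.5 and 9.81 CPM in adult control, 67.6, 96.3 and 99.7 CPM in stroke, 36.5, 44.2 and 100 CPM in siRNA-labelled stroke and 86.3, 67.7 and 30.9 CPM in P4. Stroke lay above adult control in all libraries, and the siRNA-labelled group spanned both. Rplp1 was at 15.3, 19.4 and 6.27 CPM in adult control, 19.5, 27.4 and 41.1 CPM in stroke, 19.4, 16.1 and 37.8 CPM in siRNA-labelled stroke and 9.98, 11.2 and 11.4 CPM in P4. Rplp2 was at 18.4, 16.6 and 22.6 CPM in adult control, 19.8, 29.0 and 48.1 CPM in stroke, 22.8, 22.9 and 43.8 CPM in siRNA-labelled stroke and 16.6, 15.4 and 16.2 CPM in P4. Rplp1 and Rplp2 were thus at their lowest or near it in P4, where Rplp0 was not. edgeR called none of the 3 in any comparison. DESeq2 called Rplp1 higher in stroke than in P4 (log2 fold change 1.31, adjusted p = 0.0267).

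Rps6, the small subunit protein that S6 kinase phosphorylates under mTORC1, was among the steadiest members. It was at 34.9, 44.6 and 32.9 CPM in adult control, 55.02, 47.1 and 68.1 CPM in stroke, 38.6, 48.3 and 64.1 CPM in siRNA-labelled stroke and 43.3, 36.7 and 37.8 CPM in P4. Rps27a, made as a fusion with ubiquitin, was at 21.9, 13.3 and 14.6 CPM in adult control, 18.8, 36.0 and 44.0 CPM in stroke, 25.99, 35.03 and 29.6 CPM in siRNA-labelled stroke and 22.6, 15.2 and 47.8 CPM in P4. P4 6 was the highest of all libraries in Rps27a. In Rpl41, Rps29 and Rpl39, all with very short proteins, P4 6 was also far above the other P4 libraries. Rpl39 was at 54.3 CPM in P4 6, against 9.70 and 7.67 CPM in P4 4 and 5. Rpl41 was at 92.2 CPM and Rps29 at 7.54 CPM in P4 6, against 30.5 to 35.1 CPM and 1.90 to 2.73 CPM in P4 4 and 5. Rpl41 was at 16.6 to 26.6 CPM in adult control, 27.8 to 78.0 CPM in stroke and 35.3 to 46.4 CPM in siRNA-labelled stroke. Rps29 was at 1.57 to 3.08, 2.35 to 6.79 and 4.46 to 9.44 CPM in these 3 groups.

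Several members have a close relative that is also in the table. Rpl22l1, a paralog of Rpl22, reached 66.1 CPM in P4 6 and 38.7 CPM in adult control 3, and was at 7.80 to 19.4 CPM in the other 10 libraries. It thus stood out in the same 2 libraries whose member profiles stood apart. Rpl22 was at its lowest in adult control 3, but in P4 6 it was also high, at 73.4 CPM, with its highest value of 87.6 CPM in stroke 6. The Rpl22l1 transcript had a GC content of 40.6%, the lowest of the tested members. Rps27l, a paralog of Rps27 known as a p53 target, was at 4.22 to 17.1 CPM in adult control, 7.70 to 23.1 CPM in stroke, 9.53 to 14.4 CPM in siRNA-labelled stroke and 1.59 to 8.75 CPM in P4. Rps27 was at 2.05 to 4.52, 3.42 to 9.88, 5.20 to 8.52 and 3.31 to 8.05 CPM in the same order. Rpl7l1, which is known to act in ribosome assembly, ranged from 0.913 to 12.01 CPM in adult control and from 4.70 to 15.4 CPM elsewhere, against 49.8 to 125 CPM for Rpl7 over all libraries.

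The relatives without a wide role in brain were near the limit of detection. Rpl3l, known from muscle, had 18, 0 and 0 counts in adult control, 0 in each stroke library, 2, 2 and 3 in siRNA-labelled stroke, and 4, 1 and 7 in P4. Rpl10l, known from testis, had 23 counts in siRNA-labelled stroke 2 and 0 in each of the other 11 libraries. Rpl39l, also known from testis, had 23 counts in adult control 1 and 23 in stroke 6, and at most 2 elsewhere. Their parents Rpl3, Rpl10 and Rpl39 were at 26.1 to 126, 19.9 to 137 and 6.09 to 54.3 CPM over all libraries. Rps4x was at 21.7 to 219.5 CPM and Rps4l at 0 to 5.03 CPM, with counts of 206, 254 and 17 in P4 4, 5 and 6.

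Genes that work beside the ribosomal proteins were called in the comparisons with P4. Of 42 ribosome biogenesis genes, 5 rose and 1 fell in P4 against adult control (median log2 fold change 0.74). Nop56, a core protein of the nucleolar particles that methylate ribosomal RNA, rose from 67.2 ± 23.1 to 210 ± 56.0 CPM (log2 fold change 1.64, adjusted p = 0.00903). Sbds, which helps to free new large subunits for use, fell from 56.2 ± 9.63 to 17.2 ± 3.71 CPM (-1.71, adjusted p = 0.00273). Of 15 genes of RNA polymerase I transcription, which makes the 45S precursor, 1 fell (Ttf1, a terminator of that transcription, by -1.71, adjusted p = 0.0449) and 0 rose.

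Translation factors were also called higher in P4. Of 35 initiation factors 8 rose in P4 against adult control and 0 fell (median 0.84), among them Eif4g2 by 1.11 (adjusted p = 0.00873) and Eif1b by 1.54 (adjusted p = 0.011). Of 10 elongation factor genes 3 rose (median 1.14), among them Eef2k, a kinase that inhibits elongation, by 1.90 (adjusted p = 0.0296) and Eef1b2 by 1.17 (adjusted p = 0.0418). Of 19 other genes with TOP mRNAs 4 rose (median 0.87), among them Pabpc1, the poly(A)-binding protein, by 1.59 (adjusted p = 0.0017) and Hnrnpa1 by 1.70 (adjusted p = 0.00909). Of 18 genes of mTORC1 and of TOP control 2 rose, Myc by 3.02 (adjusted p = 0.000171) and Mycn by 4.25 (adjusted p = 0.00641), with a list median of 0.19. Both are transcription factors known to drive ribosome production. Of 77 mitochondrial ribosomal protein genes 0 passed (median 0.24). Background shares of calls in this comparison are those given above, 6.32% higher and 10.4% lower.

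In stroke against P4, 10.8% of all genes were called higher and 7.94% lower, and the calls differed between these lists. Of 42 biogenesis genes 1 was higher and 4 lower, and of 35 initiation factors 1 was higher and 6 lower. Of 19 other TOP genes 1 was lower, and of 18 genes of mTORC1 and TOP control 3 were lower. Of 77 mitochondrial ribosomal protein genes 2 were higher, and of 15 RNA polymerase I and 10 elongation factor genes 0 were called. Eif4e, the cap-binding protein, fell from 147 ± 18.6 to 59.6 ± 13.8 CPM (-1.30, adjusted p = 0.00967). In the 3 comparisons without P4, edgeR called 0 genes of these lists. The list medians in stroke against adult control were 0.14 for biogenesis, 0.43 for RNA polymerase I, 0.78 for elongation, 0.54 for initiation, 0.73 for other TOP genes, 0.22 for mTORC1 and TOP control and 0.47 for mitochondrial ribosomal proteins, beside 0.90 for the members. Of the ribosomal protein genes whose symbols fall outside the pattern, 4 were tested, Gnb2l1 (the gene of Rack1) and Fau among them, with medians of 0.83 in that comparison and 0.39 in P4 against adult control, and 0 were called in any.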

How the data were processed

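Libraries were made by Ovation RNA-seq amplification and read as 69 bp pairs, per the labels' protocols. The submitters' processing notes name CASAVA 1.8.2, edgeR and mm10. How reads were aligned and counted, and with which strand setting, is not given in the sources used here. Deposited values used were raw read counts per gene. The authors' deposited log2 fold changes and false discovery rates (adjusted p-values) were only counted. Another 30 columns of per-library values were not used, among them the authors' normalized signal. The first P4 library's column is named P3 and was matched by its number.

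Counts were tested in R 4.3.3 with edgeR 4.0.16: filterByExpr by group, TMM factors, 1 mean per group over 12 libraries, and the quasi-likelihood test, with Benjamini-Hochberg adjustment over 17909 genes and a threshold of 0.05. The SE is the absolute log2 fold change over the square root of F. DESeq2 1.42.0 (shares over the genes it gave an adjusted p), other scalings and fits, and leaving out each library were alternatives. The test was tried on simulated counts. Transcripts, GC content and stretches of 69 bases came from GENCODE M21 (GRCm38, the mm10 build), where all 84 members matched by symbol, and promoters from RefSeq.

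The members, lists and tests were chosen with earlier results of these data known. Members were named if called (up to 8 per direction, or else the 3 smallest p), and as relatives, landmarks, or extremes of level per length and of spread. For each other list, the 2 smallest p were named where a gene was called, and the text gives part of them. Some genes that the rule picks are not reported here, but stay in the counts and medians. Searches in promoters and transcripts, the GC offset, the fit without 2 libraries, Rpl27a and the members apart in P4 were chosen after the data were seen. The planned correlation of shares over all libraries was not computed, because the Rn45s shares fall in separate clusters.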

Additional observations from a re-analysis of the deposited data

How the results depend on the processing

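Of 164 alternative values for counts, medians and shares, 141 stayed within 1.5 times the count or 1 SD, and 23 moved. For stroke against adult control, calls were 7 by DESeq2 (7.86% of all genes) and 0 to 1 with a library left out (1 without adult control 2; 0.165 to 2.92% of all genes), and the median 0.52 with the Rn45s term (0.70 to 1.09 with a library left out). For P4 against adult control, calls were 23 by DESeq2 (27.2% of all genes), 22 with the Rn45s term (20.2%), 5 without the low-count filter (12.4%), 3 with only the 2 groups fitted (678 higher and 961 lower of 16198 genes), 5 without adult control 3 and P4 6 (18.5%; chosen after the data were seen) and 3 to 11 with a library left out (9.84 to 16.2%). Its median was 1.06 with the Rn45s term and 0.54 to 1.06 with a library left out. For stroke against P4, calls were 5 by DESeq2 (26.5% of all genes), 5 with only the 2 groups fitted (30.7%) and 1 to 3 with a library left out (1 without stroke 4, stroke 5 or P4 4; 12.5 to 15.2%), and the median was -0.48 with the Rn45s term. The correlation of shares within 7 libraries was -0.74 without the farthest 2. The cause of these shifts was not tested.

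Of 283 alternative values for 20 results of single members, 229 kept their side of the threshold, 51 were no longer past it, 3 newly passed and 0 reversed. Only members called, or with the 3 smallest p, were followed in this way.

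Replicate numbers shared by adult control and siRNA-labelled stroke, and by stroke and P4, showed no clear pairing of the libraries. Correlations of same-numbered deviations were 0.0642, -0.191 and -0.336, and 0.16, 0.0136 and 0.153. Adult control 2 and siRNA-labelled stroke 3, with unlike numbers, were at 0.481. So few correlations cannot exclude a pairing. With a replicate block, calls were 5 in stroke against P4 (29.3% of all genes) and 0 in siRNA-labelled stroke against adult control. Not every library correlated best with its own number. Members at about 1 CPM, and shared reads, limit the depth behind single values.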

Other observations

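Rows named as ribosomal protein pseudogenes were 5 in the table. They took 0.000426 to 0.00308% of the counts of a library, and the highest count of such a row in a library was 324. Across the 81 tested members, Spearman's rho across genes was 0.55 for CPM against transcript length and 0.01 for CPM per kb against it.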
